A study of Rattus norvegicus with 6 samples.

Results

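Circular RNAs made from genes of membrane trafficking and autophagy were followed in white matter of rats with cerebral palsy and of healthy rats. The host genes were chosen by name from the deposited table, as every host of an exonic circular RNA with at least 1 read that belongs to the Vps, Snx, Exoc, Sec, Trappc, Ap1 to Ap4 adaptor, Arfgef, Rab, Stx, Stxbp or Atg families, together with Ambra1. This gave 72 of 3160 host genes and 203 of 7461 exonic circular RNAs (circRNAs), with 708 of 35272 junction reads. A further matching host, 1 gene (Vps13b), was left out by the rule. The rule itself uses names and the presence of a read, but it was set with earlier results of these data known.

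The series holds 6 libraries of RNase R-treated total RNA, 1 per rat: 3 rats of the cerebral palsy model and 3 healthy controls (Rattus norvegicus). The labels do not say how the model was made, or which strain, age or sex the rats had. RNase R digests linear RNA and spares closed circles. A circRNA is counted by reads across its back-splice junction, the point where a downstream splice donor has been joined to an upstream acceptor. A junction is a single position in each circle, so its reads do not scale with the length of the gene. Host sums, in contrast, add the reads of up to 14 junctions per host.

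Eukaryotic cells move membrane and cargo in vesicles. Coat proteins and adaptors form the vesicle, Rab GTPases give it an address, tethering complexes catch it at the target membrane, and SNARE proteins such as syntaxins fuse it. Sorting nexins and retrieval complexes return receptors from endosomes. In autophagy, a double membrane grows around cytoplasm under the control of the Atg proteins and closes, and the contents are then broken down in lysosomes. Myelinating glia and neurons depend on these routes to deliver membrane and proteins over long distances.

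Roles were assigned by hand from textbook knowledge of each gene. The set as a whole was compared with the Gene Ontology terms in the authors' deposited table, which does not check single roles. A high share was to be foreseen, because the hosts were chosen by the names of trafficking and autophagy families. Of the 62 hosts that carried any term, 60 (96.8%) had a term for vesicles, endosomes, the Golgi, lysosomes, protein transport, exocytosis, endocytosis or autophagy, against 22.1% of the 2618 other annotated hosts. The exceptions were Arfgef3 and Snx29. Autophagy terms stood beside 16 of the 62 (25.8%), against 2.02% of other hosts. RefSeq (GRCr8, used for names only) lists 266 protein-coding genes with names of this kind, and 27.1% of them gave a circRNA here. The share was 14.5% among the Rab genes (10 of 69), 13.3% among the Stx genes (2 of 15) and 15.2% among the Sec genes (5 of 33), and it was 53.8% among the Exoc genes (7 of 13) and 71.4% among the Stxbp genes (5 of 7).

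Depth limited every value. The libraries held 5821, 4750 and 5697 junction reads in model rats and 6793, 6285 and 5926 in controls, of which 94.1% to 96.3% were exonic. No read in a library allows up to 3 reads, or 0.0442% to 0.0632% of its junction reads; these limits cover counting error only, since PCR copies were not told apart. The myelin genes Mbp, Mog, Mag, Mobp, Cnp, Cldn11 and Myrf gave no circRNA read in any library, and of 9 oligodendrocyte markers 1 was seen, with 0 reads in model rats and 1 in controls. Circular reads of marker genes therefore could not check the labelled tissue. Microglial markers were at 0 of 5, astrocyte markers were seen for 1 of 6 (Slc1a2, 24 reads in model rats and 30 in controls) and neuronal markers for 2 of 9 (11 and 7 reads). Endothelial and pericyte markers were seen for 1 of 5 (Flt1, 3 reads in model rats and 7 in controls), ependymal and choroid plexus markers for 1 of 4 (Dnah9, 11 and 4 reads), and oligodendrocyte precursor markers for 1 of 4 (1 and 3 reads). The model libraries had 0 reads from Y-linked junctions, against 2, 9 and 2 in the control libraries; a difference in sex, on which the labels are silent, cannot be told apart from the model. In whole tissue, fewer cells of a type and less RNA per cell cannot be told apart either.

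As a group, the 72 hosts took about 2% of the circular RNA in model and in control white matter. They held 2.08%, 1.98% and 2.25% of junction reads in model rats, against 2.05%, 1.99% and 1.70% in controls. The groups overlapped, with means of 2.10% ± 0.135 in model rats and 1.91% ± 0.183 in controls (SD, n = 3 each), and 343 and 365 reads in all. The difference of 0.19 percentage points lies near the spread between rats. It was 0.0528 points without Ambra1, the host with the most reads, 0.116 without model rat 3 and 0.0839 without control 3. Scaling by the authors' own divisors in place of junction reads gave a difference of -0.10, the opposite sign. That value is not a share of junction reads. No p is given for this sum, since the hosts were grouped with earlier results of these data known.

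No trafficking or autophagy host passed the test between model and control rats. Of the 72 hosts, 26 had at least 6 reads and were tested in edgeR with all other hosts, and 0 passed an adjusted p of 0.05, where 3 of all 1050 hosts passed (0.286%). At an unadjusted p under 0.05 there was 1, Ap3b1, which is 3.85% of the 26, against 5.71% of all hosts tested. Log2 folds (model over control) were positive for 15 and negative for 11, with a median of 0.18, against a median of 0.01 over all 1050 hosts. The other 46 hosts had 1 to 5 reads each and were not tested; together they had 42 reads in model rats and 60 in controls. The all-host count was also 0 when either of model rats 2 and 3 or either of controls 2 and 3 was left out. The count among trafficking hosts was 0 in each of 15 other settings (other filters, scalings and tools, a fit with the replicate number as a block, and fits without 1 library), which tested from 2 hosts under edgeR's default filter to all 72 without a filter.

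**Figure D1:**
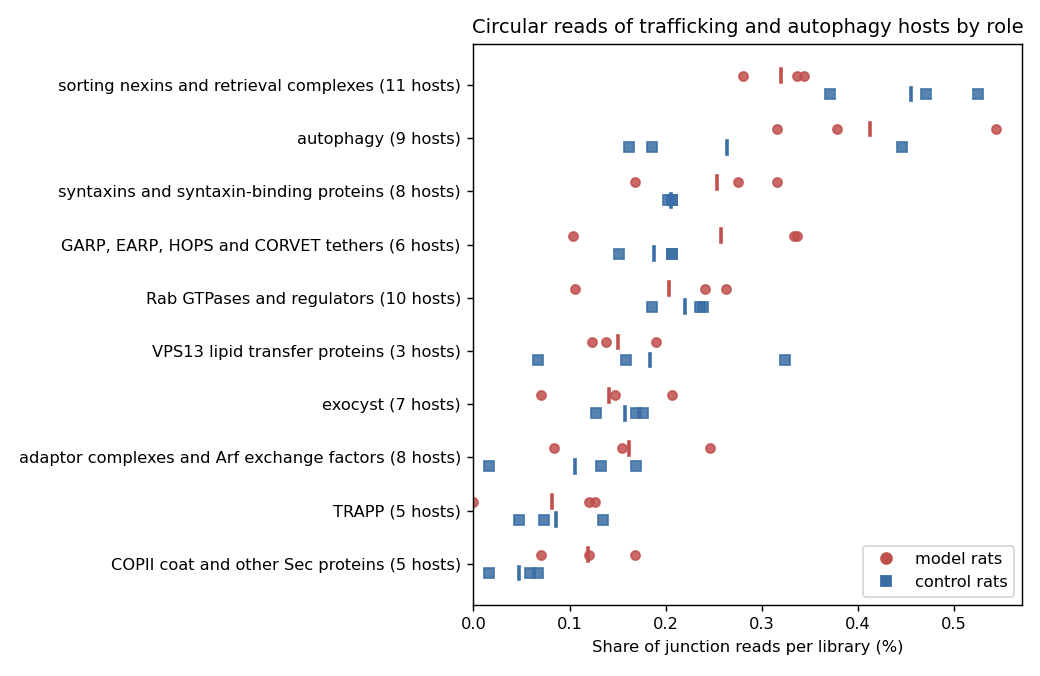
Share of junction reads (%, x axis) taken by the 10 role groups of hosts in each library; points and squares are single rats and short vertical lines are group means (n = 3). The groups overlap in most roles. Sorting nexins stand lower in all 3 model rats (mean 0.320% against 0.456% in controls) and COPII hosts higher (0.120% against 0.0474%). Snx13 gave 73 of the 139 reads of the sorting nexin group. The COPII order rests on 4 reads each in model rat 3 and controls 1 and 3. Neither sum was tested, and no background share was computed for role groups. Among single hosts tested, 5.05% lay wholly below and 5.62% wholly above the controls.

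Reads were concentrated in a few hosts. The 6 hosts with the most reads, Ambra1, Snx13, Rab11a, Vps50, Stxbp5l and Vps13a, held 380 of the 708 reads (53.7%). Only these, Sec24a and Stxbp5 had a read in all 6 libraries, while 15 hosts rested on 1 read. The hosts are described below by role, with reads in each library and levels as reads per 1000 TMM-scaled junction reads. TMM is edgeR's scaling for library composition.

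**Figure D2:**
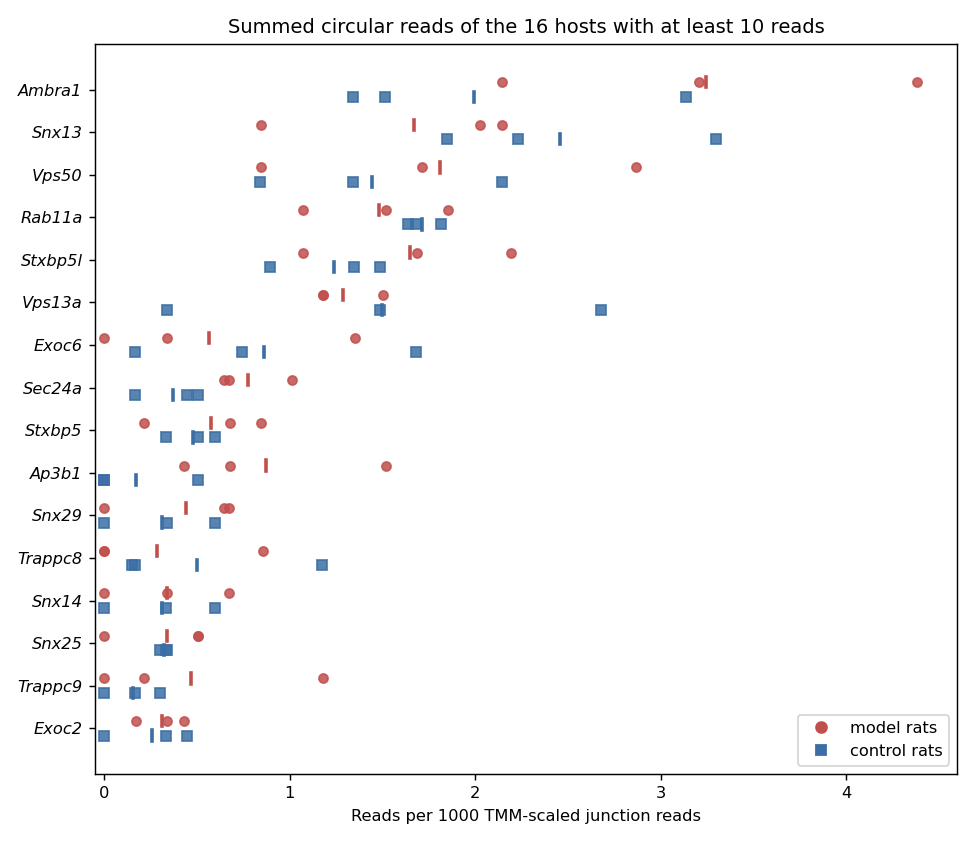
Level of summed circRNAs (reads per 1000 TMM-scaled junction reads, x axis) for the 16 hosts with at least 10 reads; points and squares are single rats and short lines are means (n = 3). Ambra1 is highest (3.24 in model rats and 2.00 in controls), and Sec24a is the only host shown in which the 3 model rats lie above the 3 controls.

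Autophagy hosts were led by Ambra1, a scaffold that binds Beclin 1 and starts the formation of autophagosomes. Ambra1 had 19, 10 and 26 reads in model rats, against 9, 19 and 9 in controls. Control 2 lay among the model rats, and the other controls lay below all of them. The level averaged 3.24 ± 1.12 in model rats and 2.00 ± 0.991 in controls (SD, n = 3 each), a log2 fold of 0.71 ± 0.49 (SE), with edgeR adjusted p = 0.971. The fold was 0.40 without model rat 3 and 1.19 without control 2. The Atg genes of the conjugation and lipid transfer machinery were rare, with 26 reads over 8 hosts. Atg16l1, which directs lipidation of LC3 proteins, had 0, 0 and 0 reads in model rats and 0, 6 and 0 in controls, all of them from circRNA3712 in control 2 and none in any other rat. Atg2b, a lipid transfer protein, had 0, 3 and 0 reads in model rats and 0, 1 and 1 in controls, and Atg4c, a protease of LC3 proteins, had 1, 1 and 0 and 1, 1 and 1. Atg5, Atg7, Atg10, Atg4b and Atg4d had 1 to 3 reads each. All autophagy hosts together took 0.413% ± 0.118 of junction reads in model rats and 0.264% ± 0.157 in controls (SD, n = 3 each), with 68 and 50 reads, of which Ambra1 gave 55 and 37.

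Ambra1 reads came mostly from a pair of overlapping circles that end at the same splice donor. CircRNA1651 (chromosome 3, 77773442 to 77792974, plus strand, 4 exons) had 9, 7 and 12 reads in model rats, against 7, 8 and 0 in controls. CircRNA1652, which starts further downstream (77778110 to 77792974, 3 exons), had 5, 3 and 10 reads in model rats, against 2, 10 and 5 in controls. Control 3 thus held no read of the longer circle and 5 of the shorter. The shared donor at position 77792974 was used by 4 of the 7 Ambra1 circRNAs and by 83 of 92 reads (90.2%). The log2 fold was 1.01 ± 0.75 for circRNA1651 and 0.20 ± 0.82 for circRNA1652 (SE, edgeR adjusted p = 0.974 for each), and without control 3 it was 0.44 for circRNA1651. All coordinates are positions in mRatBN7.2 as the authors' table lists them.

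Sorting nexins and retrieval complexes were the role group with the most reads. Its 11 hosts took 0.344%, 0.337% and 0.281% of junction reads in model rats, against 0.471%, 0.525% and 0.371% in controls. Every model rat lay below every control, with 52 and 87 reads, and the group means were 0.320% ± 0.0344 and 0.456% ± 0.0780 (SD, n = 3 each). This sum was not tested, no background share for such sums was computed, and the order without Snx13 was not computed either. Snx13, a nexin with an RGS domain, gave 73 of these reads, 27 of the 52 in model rats and 46 of the 87 in controls. It had 12, 10 and 5 reads in model rats, against 15, 20 and 11 in controls. On the TMM scale the groups overlapped, at 1.67 ± 0.719 in model rats and 2.46 ± 0.753 in controls (log2 fold -0.57 ± 0.54, SE, edgeR adjusted p = 0.971). The fold was -0.28 without model rat 3 and -0.30 without control 2. Of the Snx13 reads, 98.6% started at the splice acceptor at chromosome 6, position 51793529 (plus strand), which 3 of its 4 circRNAs share. The most abundant single circle among all trafficking hosts uses this site: Snx13 circRNA1192 (51793529 to 51801412, 4 exons) had 7, 10 and 4 reads in model rats, against 9, 20 and 8 in controls (log2 fold -0.68 ± 0.65, SE, edgeR adjusted p = 0.974). Its fold was -0.08 without control 2, the rat with 20 reads. Snx13 circRNA1193, with 7 exons, had 4, 0 and 1 reads in model rats and 5, 0 and 1 in controls.

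Snx27, an adaptor by which retromer returns receptors to the cell surface, was the 1 host of the 26 whose model rats all lay below the controls. It had 0, 1 and 0 reads in model rats, against 2, 3 and 3 in controls, a log2 fold of -2.42 ± 1.64 (SE) with edgeR adjusted p = 0.971. Over all hosts tested 5.05% behaved in this way, so 1 of 26 (3.85%) is near the background. Snx29 had 0, 3 and 4 reads in model rats and 4, 0 and 2 in controls. Snx14, which acts at contacts between the endoplasmic reticulum and lipid droplets, had 2, 0 and 4 and 4, 2 and 0, and Snx25 had 3, 0 and 3 and 2, 2 and 2. The log2 folds of these 3 nexins were 0.43 ± 1.22, 0.15 ± 1.26 and 0.12 ± 1.25 (SE). Vps35, the core of retromer, had 1 read in model rats and 4 in controls, and Vps35l, the core of the related retriever complex, had 2 and 4.

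Rab GTPases act as switches that mark a membrane. Most circular reads of the Rab GTPases and their regulators, 57 of 76, came from Rab11a, the GTPase of recycling endosomes. Rab11a gave a single circRNA, circRNA2335 (chromosome 8, 65234054 to 65237042, minus strand, 3 exons, 2989 bp). It had 9, 5 and 11 reads in model rats, against 11, 11 and 10 in controls. The controls lay close together and within the range of the model rats, at 1.48 ± 0.393 in model rats and 1.71 ± 0.0935 in controls on the host scale (log2 fold -0.19 ± 0.60, SE, edgeR adjusted p = 0.971). The other 9 hosts of this role had 19 reads in all; Rab3gap1, part of an exchange factor for Rab18, had 1, 0 and 3 reads in model rats and 0, 2 and 0 in controls.

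Syntaxin-binding proteins control when SNAREs assemble, and here the tomosyns, which hold syntaxin in an inactive state, were the main hosts. Stxbp5l (tomosyn-2) had 10, 5 and 13 reads in model rats, against 6, 9 and 8 in controls (1.65 ± 0.561 and 1.24 ± 0.310, SD, n = 3 each; log2 fold 0.43 ± 0.62, SE, edgeR adjusted p = 0.971). Its pair of main circles had opposite fold signs. CircRNA207 (chromosome 11, 63539764 to 63559189, plus strand, 6 exons) had 8, 4 and 10 reads in model rats, against 3, 4 and 5 in controls. CircRNA206, which lies upstream (63433304 to 63510514, 7 exons), had 0, 0 and 3 reads in model rats, against 3, 5 and 3 in controls. CircRNA207 thus made up 78.6% of Stxbp5l reads in model rats and 52.2% in controls, and circRNA206 10.7% and 47.8%. The log2 folds were 0.96 ± 0.84 and -1.64 ± 1.36 (SE, edgeR adjusted p = 0.974 for each). CircRNA206 stood at -1.08 without model rat 2 and -1.11 without model rat 1, while without model rat 3 no model read was left. The host fold of Stxbp5l was 0.14 without model rat 3, 0.23 without control 1 and 0.69 without model rat 2.

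Stxbp5 (tomosyn-1) had 4, 1 and 5 reads in model rats and 4, 2 and 3 in controls. Its main circle, circRNA1912 (chromosome 1, 4265229 to 4272642, minus strand, 4 exons), had 4, 1 and 4 reads in model rats, against 1, 0 and 1 in controls. On the TMM scale this was the 1 circRNA of the 22 tested whose model rats all lay above the controls (4.55%, against 4.78% of all circRNAs tested). The smallest gap, between model rat 2 and control 3, was 1 read in each and came from the scaling. Its log2 fold was 2.08 ± 1.60 (SE, edgeR adjusted p = 0.974). In the authors' own comparison of the same libraries it had the smallest p of the 203 circRNAs (0.162), which is no separate support. There, 0 of the 203 were marked as changed, where 35 of all 11123 entries were (0.315%). The syntaxins themselves, Stx6 and Stx17, had 2 and 0 reads in model rats and 0 and 1 in controls.

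**Figure D3:**
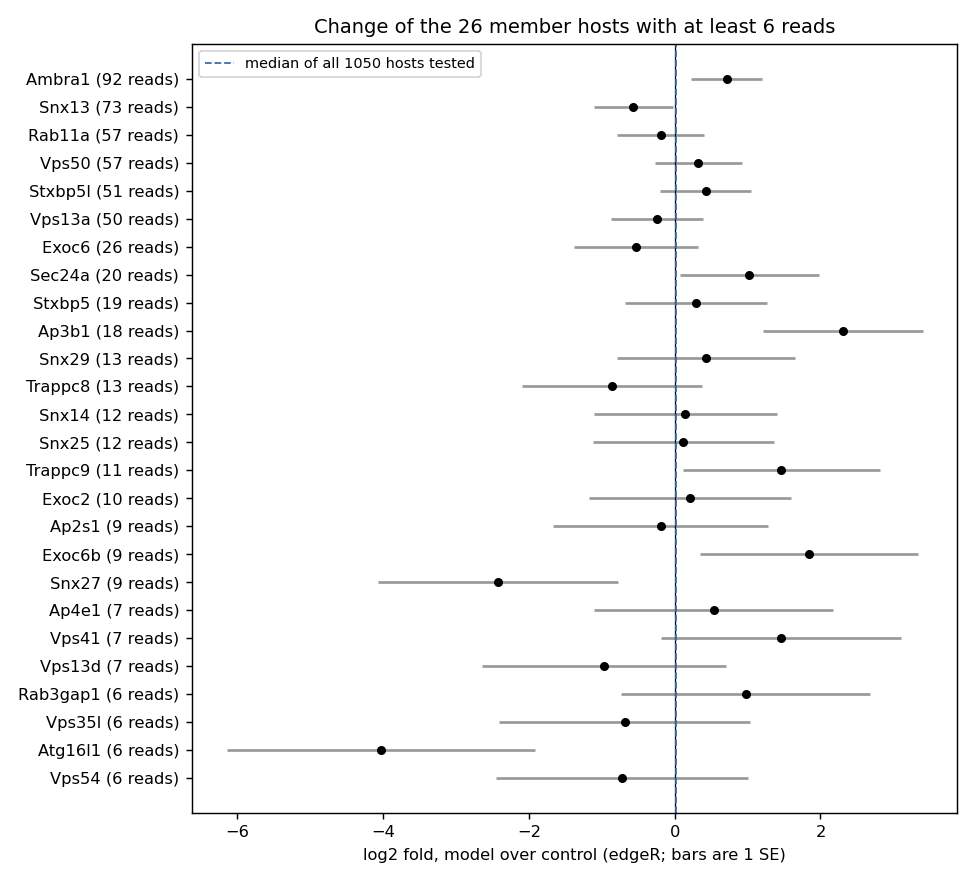
Log2 fold (model over control, x axis; edgeR) of the 26 hosts with at least 6 reads, ordered by total reads; bars are 1 SE and the dashed line is the median of all 1050 hosts tested (0.01). The SE widens as reads fall, from 0.49 for Ambra1 with 92 reads to 2.11 for Atg16l1 with 6, whose position depends on the prior count because model rats had 0 reads.

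Tethering complexes hold a vesicle at its target before fusion. Vps50, the subunit that makes the endosomal EARP complex distinct from GARP, had 5, 8 and 17 reads in model rats, against 9, 13 and 5 in controls. The ranges overlapped almost wholly, at 1.81 ± 1.01 and 1.44 ± 0.659 (SD, n = 3 each; log2 fold 0.32 ± 0.59, SE, edgeR adjusted p = 0.971). Without model rat 3 the fold was -0.25. The 11 Vps50 circRNAs were unevenly spread over the rats. CircRNA3263 (chromosome 4, 31517801 to 31548005, plus strand, 7 exons) had 0, 7 and 0 reads in model rats and 0, 9 and 1 in controls, so it was nearly all in model rat 2 and control 2. CircRNA1480 (31544734 to 31554735, 4 exons) had 2, 0 and 7 reads in model rats and 3, 1 and 0 in controls, with 1 read in model rat 2 and control 2 together. CircRNA1476 and circRNA1475, which share an acceptor, had 8 and 7 reads over all rats and none in model rat 2 or control 2. Model rat 2 held 8 Vps50 reads in all, 7 of them from circRNA3263, and control 2 held 13, 9 of them from circRNA3263. Why the circles differed between rats was not tested. Vps41, of the lysosomal HOPS complex, had 0, 5 and 0 reads in model rats and 0, 0 and 2 in controls, and Vps54, the GARP-specific subunit, had 0, 0 and 2 and 3, 0 and 1.

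The exocyst tethers vesicles at the plasma membrane. Of its hosts, Exoc6 had 8, 0 and 2 reads in model rats, against 5, 1 and 10 in controls (log2 fold -0.54 ± 0.85, SE, edgeR adjusted p = 0.971). The spread within each group exceeded the difference between them, and the sign turned without control 3 (0.34). Its main circle, circRNA2099 (chromosome 1, 235365687 to 235387765, plus strand, 6 exons), had 4, 0 and 0 reads in model rats and 2, 1 and 4 in controls. The donor at 235387765 served 4 of the 8 Exoc6 circRNAs and 76.9% of the reads. Exoc2 had 2, 2 and 1 reads in model rats and 3, 2 and 0 in controls, and Exoc6b had 2, 4 and 1 and 0, 2 and 0.

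TRAPP complexes tether vesicles at the Golgi and in autophagy and activate Rab proteins. Trappc8, of the TRAPPIII form, had 0, 4 and 0 reads in model rats, against 1, 1 and 7 in controls. Trappc9, of the TRAPPII form, had 7, 1 and 0 reads in model rats, against 2, 1 and 0 in controls. In each, 1 rat carried more than 50% of the reads, and the log2 folds were -0.86 ± 1.24 and 1.46 ± 1.35 (SE, edgeR adjusted p = 0.971 for each).

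Coat and adaptor proteins shape vesicles and pick their cargo. The 5 COPII and other Sec hosts took 0.120%, 0.168% and 0.0702% of junction reads in model rats, against 0.0589%, 0.0159% and 0.0675% in controls, with every model rat above every control. Model rat 3 and controls 1 and 3 had 4 reads each, so their order came from the library totals. This sum of 19 reads in model rats and 9 in controls was not tested, and it too has no background share. Sec24a, a cargo-binding subunit of the COPII coat that leaves the endoplasmic reticulum, had 6, 3 and 4 reads in model rats, against 3, 1 and 3 in controls. Every model rat lay above every control on the TMM scale, at 0.776 ± 0.205 and 0.372 ± 0.181 (SD, n = 3 each), but the log2 fold of 1.03 ± 0.95 (SE) did not pass (edgeR adjusted p = 0.971). It was the 1 host of the 26 with this order (3.85%, against 5.62% of all hosts tested), and its raw reads overlapped at 3. The 20 Sec24a reads were spread over 14 circRNAs, none with more than 3 reads.

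Ap3b1, the beta subunit of the AP-3 adaptor that sorts cargo to lysosomes and related organelles, had the lowest unadjusted p of the 26 hosts. It had 4, 2 and 9 reads in model rats, against 0, 0 and 3 in controls. Control 3 lay above model rat 2 on the TMM scale, and the levels were 0.873 ± 0.571 in model rats and 0.168 ± 0.291 in controls (SD, n = 3 each). The log2 fold was 2.31 ± 1.10 (SE), with unadjusted p = 0.0354 and edgeR adjusted p = 0.816. The fold was 1.62 without model rat 3, and without control 3 the remaining controls had no read. The 18 reads came from 7 circRNAs with 1 to 5 reads each. Ap2s1, the small subunit of the AP-2 clathrin adaptor, gave a single circle with 3, 0 and 1 reads in model rats and 1, 0 and 4 in controls. The Arf exchange factors were rare: Arfgef1 had 2 reads in model rats and 0 in controls, Arfgef2 had 0 and 4, and Arfgef3 had 0 and 2.

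VPS13 proteins are long bridges that carry lipids between membranes at contact sites. Vps13a had 7, 7 and 7 reads in model rats, against 18, 9 and 2 in controls. The model rats lay inside the wide range of the controls, at 1.29 ± 0.185 and 1.50 ± 1.17 (SD, n = 3 each; log2 fold -0.24 ± 0.63, SE, edgeR adjusted p = 0.971), and the fold was 0.48 without control 1. As with Vps50, single circles were patchy. CircRNA2075 (chromosome 1, 213944480 to 213946868, minus strand, 4 exons) had 3, 0 and 7 reads in model rats and 8, 0 and 0 in controls. Of the 13 Vps13a circRNAs, 6 shared the donor at position 214033991 and held 36% of the reads. The acceptor of circRNA2075, at position 213946868, was used by 2 of the 13 and held 50% of the reads. Vps13c and Vps13d had 3 and 7 reads over all rats, and Vps13b was left out by the rule.

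**Figure D4:**
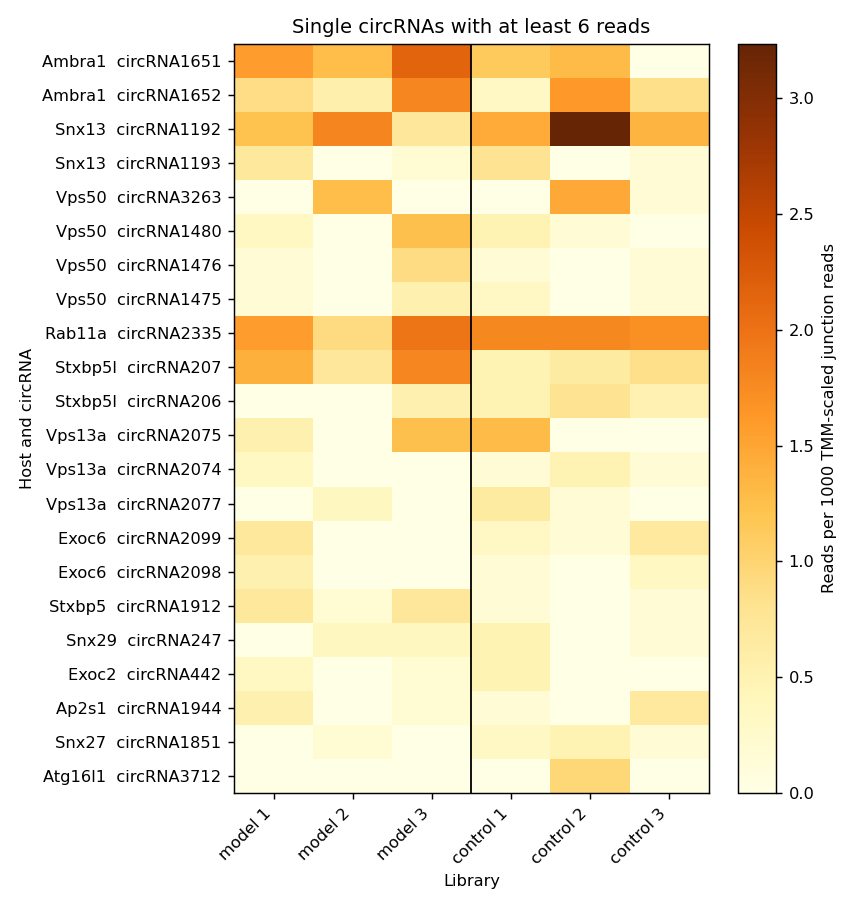
Level of the 22 circRNAs with at least 6 reads (rows, grouped by host) in each library (columns, 3 model rats left of the line and 3 controls right of it); darker means more reads per 1000 TMM-scaled junction reads. Snx13 circRNA1192 and Rab11a circRNA2335 appear in all 6 libraries, while Vps50 circRNA3263 lies in model rat 2 and control 2 with 1 read in control 3.

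Single junctions gave the same count of calls as the host sums. Of the 203 circRNAs, 22 had at least 6 reads and were tested in edgeR. Of these, 0 passed, against 2 of all 1025 circRNAs tested (0.195%), and 0 had an unadjusted p under 0.05 (5.07% of all). None had all model rats below all controls (4.98% of all). Log2 folds were positive for 11 and negative for 11, with a median of -0.03, against -0.04 over all circRNAs tested. The 4 circRNAs seen in all 6 libraries were Snx13 circRNA1192, Rab11a circRNA2335, Ambra1 circRNA1652 and Stxbp5l circRNA207.

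Whether hosts used their alternative circles in different proportions was tested with edgeR's diffSpliceDGE, added after the data were seen. It could be run on 6 of the 72 hosts (Ambra1, Exoc6, Snx13, Stxbp5l, Vps13a and Vps50) among 188 in all. None passed, and 0% of the 188 did. The smallest unadjusted p of the 6 was 0.0946, for Stxbp5l (edgeR adjusted p = 0.774); with limma's diffSplice it was 0.0264 (limma adjusted p = 0.744). At an unadjusted p under 0.05 there were 11 of the 188 hosts in edgeR and none of the 6.

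The circles of these hosts ranged from 1 to 27 exons, with a median of 5, against a median of 4 in other exonic circRNAs. Only 1 of the 203 (0.493%), from Rab3c, held a single exon, against 5.17% of other circRNAs. The median genomic span was 14761 bp, against 12573.5 bp in the others. The introns before and after the circle had medians of 5526 and 6216 bp, against 8251 and 7221 bp in the others. These are descriptions of structure, and no difference from other circRNAs was tested. A single read supported 95 of the 203 circRNAs (46.8%), against 49.0% of the others. Hosts gave up to 14 circRNAs each (Sec24a), and 32 of the 72 gave 1 (44.4%, against 52.2% of other hosts). Of the 16 hosts with at least 10 reads, 10 took less than 50% of their reads from their most abundant circle.

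**Figure D5:**
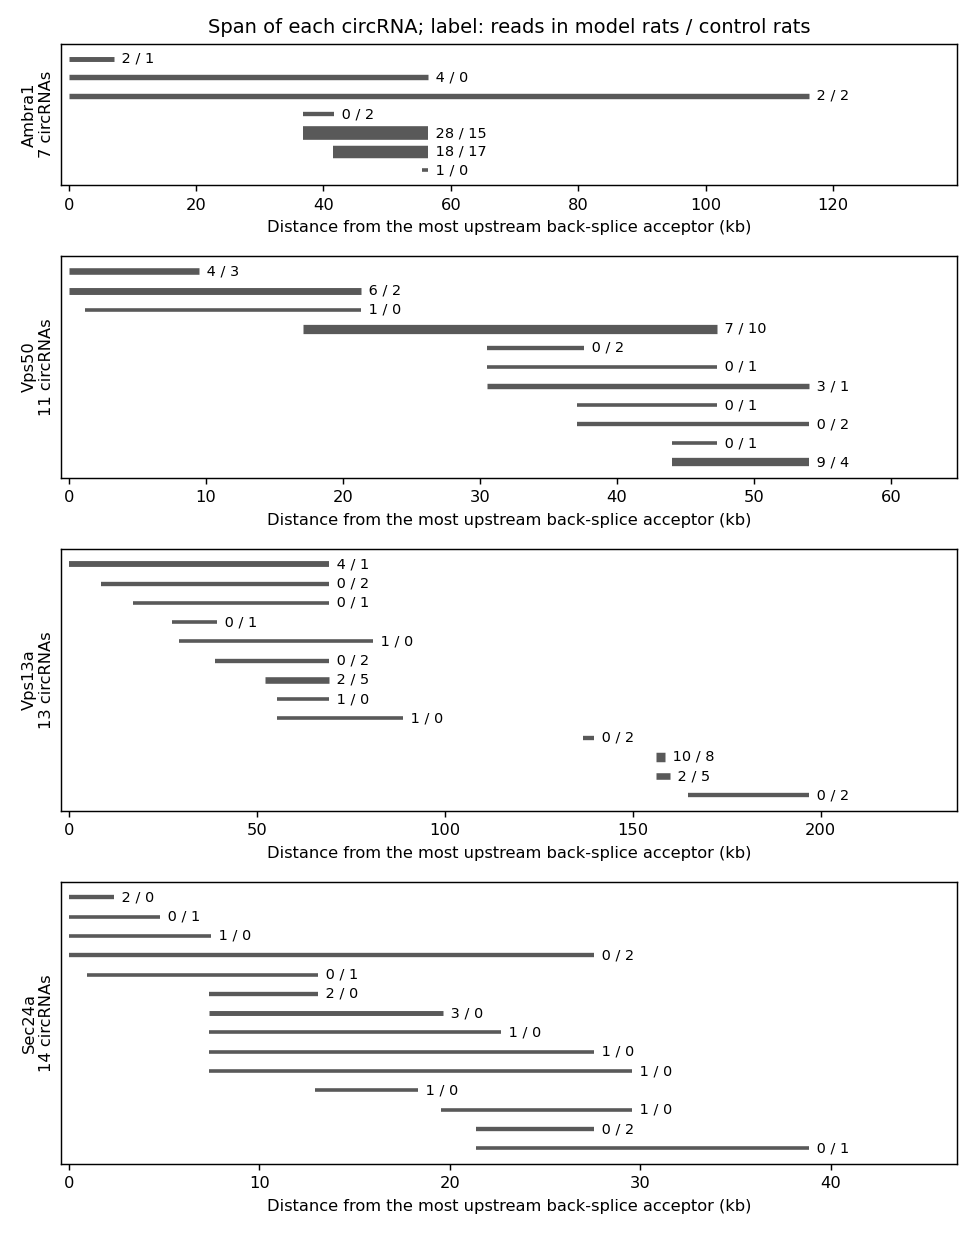
Genomic span of every circRNA of Ambra1, Vps50, Vps13a and Sec24a (x axis, kb from the most upstream back-splice acceptor of the host); bar width grows with reads, and labels give reads in model rats and then in controls. Ambra1 reads gather in a pair of circles with a common donor (28 and 15 reads, and 18 and 17 reads), while Sec24a reads are scattered over 14 circles.

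Hosts elsewhere in these pathways were taken from lists of 155 genes, of which 64 gave a circRNA and 20 were tested. None passed in either direction, where 0.286% of all 1050 hosts did. In edgeR 0 had an unadjusted p under 0.05, against 5.71% of all hosts tested. Log2 folds were positive for 12 and negative for 8 (median 0.30), against 529 and 521 over all hosts (median 0.01). The Rab regulators Dennd1b (94 reads in model rats and 96 in controls) and Tbc1d5 (41 and 53), and Zfyve9, an endosomal protein, had the most reads. Zfyve9 had 28, 4 and 12 reads in model rats, against 10, 14 and 10 in controls, so that model rat 1 held most of the model reads. Picalm, a clathrin assembly protein, had 3, 2 and 6 reads in model rats, against 9, 17 and 5 in controls (log2 fold -1.31 ± 0.71, SE, edgeR adjusted p = 0.864). By sub-list, SNARE and fusion genes had 22 reads in model rats and 32 in controls, coat and endocytosis genes 38 and 55, endosome and lysosome genes 241 and 250, and other autophagy genes 38 and 27. Golgi tethers and Arf regulators had 30 and 20 reads, or 0.147% to 0.206% of junction reads in model rats and 0.0844% to 0.127% in controls. The ranges of the other sub-lists overlapped. None of these sums was tested, and no background share for them was computed. Rb1cc1, a scaffold of the autophagy starting kinase, had 9, 0 and 2 reads in model rats, against 0, 2 and 0 in controls (log2 fold 2.35 ± 1.33, SE, edgeR adjusted p = 0.927). Further hosts with at least 10 reads were Nsf, which takes used SNARE complexes apart (log2 fold -0.78 ± 0.94), Nbas (-0.57 ± 0.83), Itsn1 (1.33 ± 1.24), Arfgap3 (1.03 ± 1.06) and Pikfyve (-0.73 ± 1.27). Dennd1a, Dennd4a and Dennd4c stood at -0.04 ± 0.69, 1.09 ± 1.14 and -0.10 ± 0.66 (all SE). Markers of other cells with at least 10 reads had log2 folds of -0.13 ± 0.61 (Slc1a2), 0.84 ± 1.10 (Syt1), -0.94 ± 1.40 (Flt1) and 1.51 ± 1.16 (Dnah9); whether they bear on the trafficking hosts was not tested.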

How the data were processed

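Circular RNA was enriched with RNase R and sequenced on Illumina NovaSeq as 150 bp paired reads, per the labels' protocols. The deposited table holds raw counts of back-splice reads per circRNA, a per-library scaled signal (SRPBM), the exon number, and the authors' log2 fold change, p-value and q-value. Coordinates are in mRatBN7.2, the build named in the submitters' processing notes. The aligner and circRNA caller were not given in the sources used here. SRPBM equals the counts divided by 1 constant per library, which served only as an alternative scaling. Of 11123 entries, 9478 were exonic circRNAs and 2488 had no read; 46 entries of matching hosts were among those at 0. Counts were summed per host, and hosts or circRNAs with at least 6 reads over the 6 libraries were tested with edgeR 4.0.16 (R 4.3.3): TMM scaling, quasi-likelihood test, Benjamini-Hochberg over all features tested, threshold 0.05. Alternatives used DESeq2 1.42.0, limma 3.58.1, other filters and scalings, a block for the replicate number, and fits without 1 library. The scripts were checked on simulated counts. For alternative circles these held more reads per circRNA than most circRNAs here, so that check gives no rate of detection at this depth. Standard errors are on the log2 scale and were derived as the absolute edgeR log2 fold over the square root of the quasi-likelihood F statistic. Where a group had no read, the fold and its standard error depend on the prior count. The 6-read minimum was chosen because edgeR's default filter leaves few of these hosts.

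The hosts and gene lists were chosen with earlier results of these data known. Described in full were hosts and circRNAs with at least 10 reads, and those with at least 6 whose groups did not overlap; those with fewer reads, and the test of alternative circles (edgeR and limma), were picked after the data were seen. Group and replicate come from the labels, which give each library as a separate biological sample; whether same-numbered rats share anything is not stated.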

Additional observations from a re-analysis of the deposited data

How the results depend on the processing

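Among the trafficking and autophagy hosts, 0 passed the threshold in each of the 15 alternatives, which tested 2 (default low-count filter) to 72 hosts (no filter). Among their circRNAs, 0 passed in each of 14; the default filter left none of them to test and gave no value. Over all genes, the count of 3 hosts became 0 with edgeR's default low-count filter and ranged from 0 to 3 when 1 library was left out. The count of 2 circRNAs became 0 with no low-count filter, with at least 10 reads, with DESeq2 size factors and in DESeq2, and ranged from 0 to 3 when 1 library was left out. The share of junction reads differed by 0.19 points. Scaling the same reads by the authors' divisors gave a difference of -0.102, which is no longer one of shares of junction reads. With the replicate block, 3 hosts and 2 circRNAs were called. Over all hosts, same-numbered rats did not deviate together (correlation -0.059, -0.044 and -0.050), so the numbers were not taken as pairs. A correlation over all hosts does not describe single junctions. Vps50 circRNA3263 lay nearly all in model rat 2 and control 2, and whether these rats share anything was not tested.

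Of 29 named hosts and circRNAs, 13 kept the sign of their log2 fold in every alternative and 16 did not. Outside the runs without a library, the sign turned for Vps13a in limma voom (0.12), for Snx25 with the authors' divisors (-0.0014), limma voom (-0.20) and the replicate block (-0.11), and for circRNA1193 with DESeq2 size factors (0.0051), DESeq2 (0.0036) and limma voom (0.028). Leaving out 1 library gave -0.25 to 0.72 for Vps50, -0.42 to 0.023 for Rab11a, -0.68 to 0.48 for Vps13a, -2.16 to 0.34 for Exoc6, -0.083 to 0.68 for Stxbp5, -0.14 to 1.27 for Snx29, -4.64 to 0.66 for Trappc8, -0.75 to 0.98 for Snx14, -0.27 to 0.66 for Snx25 and -0.32 to 0.81 for Exoc2. For circRNAs it gave -0.48 to 0.058 for circRNA2335, -0.37 to 0.90 for circRNA1652, -0.67 to 4.80 for circRNA2075, -4.76 to 2.20 for circRNA3263, -0.27 to 2.42 for circRNA1480 and -1.58 to 1.59 for circRNA1193. With the sign kept, leaving out 1 library gave -4.88 to -1.08 for circRNA206, -4.23 to -0.054 for circRNA2099, -4.45 to -1.98 for Snx27, 1.62 to 5.44 for Ap3b1 and 0.96 to 2.24 for Trappc9, which gave no value without model rat 1. The ends at -4.64, 4.80, -4.76, -4.88, -4.23, -4.45 and 5.44 came from runs that left a group with no read, so they depend on the prior count. The cause of the other moves was not tested. With the authors' divisors the median of all hosts moved from 0.01 to -0.14. Ap3b1 kept an unadjusted p under 0.05 in 8 of 14 alternatives, with a smallest adjusted p of 0.621 in edgeR, limma or DESeq2. Few reads per host limit all of these folds.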

Other observations

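Intronic circles of the same hosts, listed by the authors as ciRNAs and kept out of the sums above, had 7, 5 and 2 reads in model rats and 2, 3 and 3 in controls. They came from 12 hosts and 18 ciRNAs. The groups overlapped, and no test was run.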
